A study of Mus musculus with 20 samples.

Results

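The 46 genes described here are nuclear genes of 3 multi-subunit enzymes of the mitochondrial inner membrane, respiratory complexes II, III and V, with cytochrome c, the factors that build those complexes and the factors that build complex IV. They were listed by name and role, with earlier results of these data known, and no measured value entered the rule; all 46 were among the 9275 genes with enough signal to test. The arrays measured total RNA of cardiac ventricle from male C57BL/6J mice, 10 old animals of 25 to 28 months and 10 young animals of 4 to 6 months, on Affymetrix GeneChip whole-genome mouse arrays, 1 array per sample. The labels give both groups the same strain, sex and housing, with no engineered allele and no treatment in either. They name no litter, batch or pooling of animals.

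Complex II (succinate dehydrogenase) feeds electrons from the tricarboxylic acid cycle into coenzyme Q, complex III passes them from coenzyme Q to cytochrome c while pumping protons, and complex V (ATP synthase) uses the proton gradient to make ATP. Each is built in steps with the help of dedicated assembly factors that are not part of the finished enzyme: some insert cofactors, such as the flavin of complex II, the iron-sulfur clusters of complexes II and III or the copper and haem A of complex IV, and others are chaperones. Heart muscle is packed with mitochondria, and transcripts of the subunits are among the abundant messenger RNAs of the ventricle.

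Values are on a log2 scale after the authors' GCRMA processing, which corrects the background and summarises the probes of each probe set, and a difference is the mean of old minus the mean of young. A gene was called lower or higher where limma's moderated test gave a Benjamini-Hochberg adjusted p under 0.05 over all 9275 genes. In ventricle tissue, fewer cells of a type and less RNA per cell cannot be told apart.

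Of the 46 members, 11 were lower in old ventricle and 0 were higher by limma, and 0 had an unadjusted p under 0.05 in the higher direction. Among all genes tested, 7.49% were called lower and 11.2% higher, so the members' share of lower calls, 23.9%, lay above the background and their share of higher calls below it. The 11 were the complex II flavoprotein gene Sdha and its flavin factor Sdhaf2, the complex III genes Uqcrc1 and Cyc1 with the assembly factor Uqcc1, the complex V genes Atp5k and Atpaf1, and the complex IV assembly genes Cox10, Cox11, Cox15 and Surf1. All 46 estimates were below 0, from -0.82 for Uqcc1 to -0.0016 for Ttc19, with a median of -0.16; over all genes, 4514 of 9275 estimates were below 0 and the median was 0.0088. Of the 11 calls only that of Uqcc1 held once the old arrays rich in atrial transcripts were removed or an atrial index was fitted, as given below. The signs of Uqcrh, Ttc19 and Atp5b, whose estimates lay nearest 0, turned with the scaling between arrays. Of the 17 assembly and inhibitor genes 7 were lower, with a median of -0.24, against 4 of the 29 subunit and cytochrome c genes, with a median of -0.15; the difference between these classes was not tested.

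**Figure D1:**
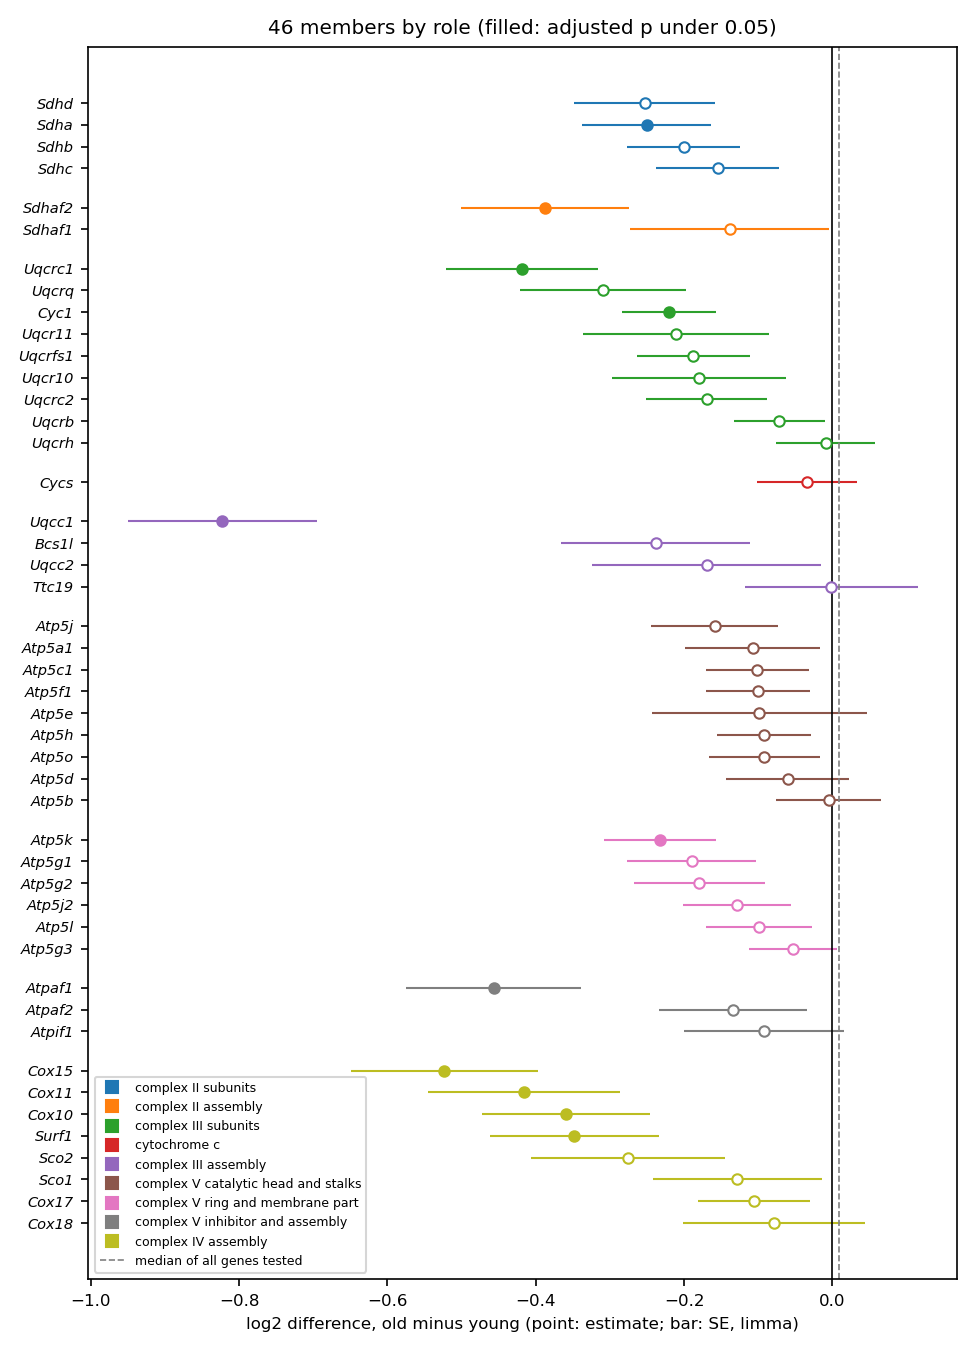
Difference between old and young ventricle (log2, x axis) for each of the 46 genes, grouped by role, with the limma estimate as a point and its SE as a bar; filled points passed an adjusted p of 0.05 and the dashed line is the median of all genes tested. All estimates lie below 0, Uqcc1 lies lowest at -0.82, and the 9 genes of the head and stalks of complex V lie between -0.16 and 0 with none called.

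Facts of the arrays that move with age stand beside these counts. Atrial transcripts were present in many old samples: Myl7, the atrial myosin light chain, exceeded 10 in 7 of 10 old arrays (up to 14.55) and lay between 2.38 and 2.44 in every young array; the other 3 old arrays had 2.36, 8.27 and 6.58, so 2 of these also lay above every young array. All 4 tested of 7 atrial markers were higher in old, the summed level of the list ranging from 10.7 to 16.6 in old and 10.0 to 12.4 in young. Of the 11 macrophage markers 9 were higher, with summed levels of 12.2 to 13.5 in old and 11.5 to 12.1 in young, as were 4 of 8 fibroblast, 3 of 8 endothelial, 1 of 6 smooth muscle and both tested red cell markers; of the adipocyte markers the 1 tested, Fabp4, was not called, while Adipoq, which did not pass the filter, ran from 2.30 to 12.02 in old and 2.10 to 2.37 in young, and Retn reached 7.68 in old and 2.20 in young. None of the 12 markers listed for ventricular muscle was called either way by limma (1 lower and 0 higher at an unadjusted p under 0.05). Their summed level was 18.3 to 18.5 in old and 18.4 to 18.6 in young. The list includes general heart and striated muscle genes, such as Myh6 and Ckm, so this level does not measure ventricular against atrial muscle. Of the 6 skeletal muscle markers, Myh1, Myh4 and Tnnt3 lay under 4 in all arrays. The 3 tested, Acta1, Ckm and Mylpf, were not called by limma. Mylpf ran from 3.95 to 4.51 in old and 4.08 to 5.04 in young, and Acta1 had means of 11.46 and 11.90. The residuals fell into 5 sets of 4 arrays, each of 2 old and 2 young samples; the labels do not say what the sets are. Old replicate 8 was the lowest of the 10 old arrays for 30 of the 46 members, 7 of the 11 called ones among them. The same count over all genes was not made, so whether this is particular to the members is not known. The part of the atrial, macrophage and other markers in the differences below was not tested beyond the values given with and without the 7 old arrays.

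Promoter sequence from RefSeq (build GRCm38.p6, 250 bases before to 50 after the gene start) was matched for 38 of the 46 members. The letters GCATGCGC, the core that nuclear respiratory factor 1 (NRF1) binds, were looked for on both strands because NRF1 is known as an activator of respiratory chain genes. They stood in the windows of 8 members (21.1%), against 3.94% of 17492 protein-coding genes and 6.30% of 7492 tested genes. Of the members with the letters, 2 of 8, Uqcrc1 and Atp5k, were lower in old, and of those without them 8 of 30 were. Stretches of 60 bases upstream of the start are shown for 5 members with the letters, a complex II subunit, the carrier Cycs, a complex III assembly factor and a pair of complex V subunits, and for Uqcc1, whose window held none; they run 5′ to 3′ on the gene's strand and capitals mark the NRF1 letters on either strand, which overlap as a palindrome in Atp5g2 and Atp5k.
Sdhb, chr4:140961191-140961250, plus strand: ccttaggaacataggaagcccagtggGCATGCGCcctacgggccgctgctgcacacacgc
Cycs, chr6:50566596-50566655, minus strand: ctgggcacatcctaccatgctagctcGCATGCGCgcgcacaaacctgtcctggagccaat
Ttc19, chr11:62281413-62281472, plus strand: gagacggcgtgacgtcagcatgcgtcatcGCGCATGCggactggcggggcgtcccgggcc
Atp5g2, chr15:102671055-102671114, minus strand: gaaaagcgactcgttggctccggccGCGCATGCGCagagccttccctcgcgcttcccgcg
Atp5k, chr5:108434415-108434474, minus strand: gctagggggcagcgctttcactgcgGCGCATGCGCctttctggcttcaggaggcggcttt
Uqcc1, chr2:155930311-155930370, minus strand: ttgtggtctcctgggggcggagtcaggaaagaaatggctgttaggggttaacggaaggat
Of the other motifs searched on both strands, the ETS letters CCGGAAG stood in 16 of 38 member windows (42.1%, against 21.1% of tested genes), the YY1 letters AAGATGGCG in 4 (10.5% against 3.98%), the CRE letters TGACGTCA in 3 (7.9% against 3.58%) and the SP1 letters GGGGCGGGG in 7 (18.4% against 26.0%). A match describes the letters only.

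In complex II, 1 of the 4 subunit genes was lower and the class median was -0.23. Sdha encodes the flavoprotein that oxidises succinate. Its values were 12.16, 12.59 and 12.78 (lowest, median and highest) in old and 12.54, 12.85 and 12.98 in young, a difference of -0.25 ± 0.09 (SE, 10 arrays per group; limma adjusted p = 0.0466), or 15.9% less on the linear scale. All 10 old arrays lay under the young median and 4 lay under every young array, so the groups overlapped, and the call was lost with any of 14 single arrays left out, with median centring (adjusted p = 0.108) and for the mean of its probe sets (0.190). The second bright probe set gave -0.15 (adjusted p = 0.404). With every passing probe set tested on its own, the main one of Sdha was not called either (limma adjusted p = 0.0543). Sdhd and Sdhc, the membrane anchors that bind coenzyme Q, had differences of -0.25 (limma adjusted p = 0.0669) and -0.15 (0.208). Sdhb, the iron-sulfur subunit, had -0.20 (0.0691), with 7 of 10 old arrays below every young array.

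Of the assembly factors of complex II, 1 of 2 was lower. Sdhaf2, which attaches flavin to the Sdha protein, had 8.77, 9.02 and 9.53 in old and 9.16, 9.49 and 9.81 in young. It differed by -0.39 ± 0.11 (SE; limma adjusted p = 0.0203), 23.5% less, with 6 of 10 old arrays below every young array, and it was called with any 1 array left out; its second probe set gave -0.23 (adjusted p = 0.137). The other listed factor, Sdhaf1, which serves the iron-sulfur clusters of Sdhb, had -0.14 ± 0.13 (adjusted p = 0.514).

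Complex III had 2 lower genes among 9 subunits, with a class median of -0.19. Uqcrc1 encodes one of the large core proteins that face the matrix. It measured 12.00, 12.39 and 12.68 in old and 12.44, 12.80 and 13.11 in young. The difference was -0.42 ± 0.10 (SE; limma adjusted p = 0.00638), 25.2% less, with every old array below the young median and 6 below every young array. Within the 5 sets it ranged from -0.56 to -0.21, and it was -0.39 when the 7 old arrays rich in Myl7 were removed, no longer called (adjusted p = 0.165; 3 old arrays remained).

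Cyc1 encodes cytochrome c1, the haem protein that hands electrons to cytochrome c. Its values were tight: 13.35, 13.47 and 13.61 in old and 13.50, 13.71 and 13.78 in young. The difference was -0.22 ± 0.06 (SE; limma adjusted p = 0.0178), 14.1% less, all 10 old arrays lay under the young median and 7 under every young array. Its estimate was -0.20 once the index of Myl7 and Sln was fitted and -0.19 with those 7 samples removed, neither called (adjusted p = 0.199 and 0.353). Cycs, the soluble carrier that Cyc1 reduces, was not called: 14.53, 14.67 and 14.78 in old and 14.42, 14.69 and 14.87 in young, a difference of -0.03 ± 0.07 (adjusted p = 0.77) with groups that overlapped throughout.

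The other 7 complex III subunits were not called. Uqcrq, a small subunit near the quinone site, came closest at -0.31 ± 0.11 (limma adjusted p = 0.0567) and the Rieske iron-sulfur gene Uqcrfs1 had -0.19 ± 0.08 (0.0926), with 7 of 10 old arrays below every young one. The second core gene, Uqcrc2, had -0.17, and the small subunits Uqcr11, Uqcr10, Uqcrb and Uqcrh had -0.21, -0.18, -0.07 and -0.0089. Without the 7 old arrays, Uqcrfs1 was at 0.03 and Uqcr10 at 0.11, in a fit that did not balance the array sets. Within the array set of old replicates 1 and 2, which were both kept, Uqcrfs1 was at -0.02 and Uqcr10 at 0.02.

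The assembly factor Uqcc1 showed the largest difference of the 46. With its partner Uqcc2 it binds newly made cytochrome b, the only subunit of complex III that the mitochondrial genome encodes. It measured 8.44, 9.24 and 9.58 in old and 9.87, 9.97 and 10.10 in young. Thus every old array was below every young array, true of this member alone and of 0.42% of all genes. The difference was -0.82 ± 0.13 (SE; limma adjusted p = 0.000114), 43.5% less, and the SD was 0.40 in old and 0.07 in young. Old replicates 8 and 9 were lowest, at 8.47 and 8.44, and the other 8 old arrays lay from 9.10 to 9.58; the 3 old arrays with Myl7 at most 10 (2.36, 8.27 and 6.58) were at 9.12, 9.58 and 9.52. Within the 5 sets the difference ran from -1.05 to -0.54. It was called with each of the 20 arrays left out in turn, with the atrial index as a covariate (-0.66, adjusted p = 0.0225) and without the 7 old arrays (-0.57, adjusted p = 0.0103). Its second probe set, tested on its own, gave -0.80 (adjusted p = 0.000165). The SD of old exceeded that of young for 31 of the 46 members. The share over all genes was not counted, so whether this is particular to the members is not known.

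None of the other complex III factors was called on its main probe set. Bcs1l, the ATPase that inserts the Rieske protein, had -0.24 ± 0.13 and Uqcc2 had -0.17 ± 0.15, while its second probe set was lower at -0.33 (adjusted p = 0.0368). Ttc19, which clears Rieske fragments from the finished complex, had -0.0016 ± 0.12 (adjusted p = 0.994) and an old range of 7.02 to 8.25 around a young range of 7.59 to 7.92.

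In complex V, 1 of 15 subunit genes was lower, with a median of -0.10. Of the 9 genes for the catalytic head and the stalks, 0 were called by limma and 0 had an unadjusted p under 0.05. Atp5j, the coupling factor of the peripheral stalk, had the smallest p of these: 12.76, 13.12 and 13.33 in old and 13.04, 13.25 and 13.45 in young, a difference of -0.16 ± 0.09 (adjusted p = 0.211). The alpha and beta subunit genes Atp5a1 and Atp5b, which form the catalytic ring of the head, had -0.11 and -0.0049. The central stalk genes Atp5c1, Atp5d and Atp5e (gamma, delta and epsilon) had -0.10, -0.06 and -0.10. The peripheral stalk genes Atp5f1 (now named Atp5pb), Atp5h and Atp5o had -0.10, -0.09 and -0.09.

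Among the 6 genes of the proton-carrying ring and the membrane part, only Atp5k was called. It encodes subunit e, which joins pairs of ATP synthases at the cristae edges. It had 12.77, 12.90 and 13.16 in old and 12.99, 13.11 and 13.40 in young. The difference was -0.23 ± 0.08 (SE; limma adjusted p = 0.0334), 14.9% less; 7 of 10 old arrays lay below every young array. Its other probe sets gave -0.16 and -0.16, neither called on its own, and its call was lost with any of 6 single arrays left out.

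The 3 genes that encode the same c subunit, Atp5g1, Atp5g2 and Atp5g3, differed by -0.19 (limma adjusted p = 0.134), -0.18 (0.165) and -0.05 (0.579). Subunit g (Atp5l) and subunit f (Atp5j2) had -0.10 and -0.13. Second, dim probe sets were lower for Atp5g1 (-0.44, adjusted p = 0.0323 over all probe sets; means of 4.08 in old and 4.52 in young) and for Atp5j2 (-0.37, adjusted p = 0.0369), where the bright ones of both genes were not called.

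The assembly factors of complex V were split. Atpaf1, a chaperone of the beta subunit, was lower: 9.73, 10.12 and 10.79 in old and 10.45, 10.65 and 10.99 in young, with 7 of 10 old arrays below every young one. The difference was -0.46 ± 0.12 (SE; limma adjusted p = 0.00896), 27.1% less, called with every single array left out. Its second, dimmer probe set gave -0.15 (adjusted p = 0.596), and without the 7 old arrays the difference was -0.05 (adjusted p = 0.854). Atpaf2, a chaperone of the alpha subunit, had -0.13 and the inhibitor gene Atpif1, whose protein stops ATP synthase from running backwards, had -0.09 (adjusted p = 0.376 and 0.599).

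The complex IV assembly genes had a class median of -0.31, with 4 of 8 lower; removing the 7 old arrays gave a median of -0.11, and fitting the atrial index gave -0.20. Both Cox15 and Cox10 serve haem A, the haem that only cytochrome c oxidase uses. Cox15, haem A synthase, had 8.75, 9.16 and 9.83 in old and 9.30, 9.75 and 10.04 in young; it differed by -0.52 ± 0.13 (SE; limma adjusted p = 0.00558), 30.4% less, and 7 of 10 old arrays lay below every young array. Of its 4 probe sets 3 passed the filter, and each of these was lower on its own, by -0.52, -0.48 and -0.37. Cox10, haem O synthase, had 6.75, 7.12 and 7.55 in old and 7.05, 7.46 and 7.67 in young and differed by -0.36 ± 0.11 (SE; limma adjusted p = 0.0298), 22.1% less; its second probe set gave -0.32 (adjusted p = 0.282).

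Cox11 carries copper to the catalytic site of the Cox1 protein. It had 7.85, 8.33 and 8.80 in old and 8.41, 8.67 and 9.13 in young, differing by -0.42 ± 0.13 (SE; limma adjusted p = 0.0282), 25.1% less. Surf1, needed for early assembly of the haem-bearing core, had 7.95, 8.26 and 8.64 in old and 8.36, 8.59 and 9.16 in young, differing by -0.35 ± 0.11 (SE; limma adjusted p = 0.0365), 21.4% less. For Cox10, Cox11 and Surf1 the groups overlapped, with 5, 6 and 6 of 10 old arrays below every young array, and their calls were lost with any of 7, 6 and 10 single arrays left out. The remaining copper factors Cox17, Sco1 and Sco2 had -0.11, -0.13 and -0.28 and the insertase Cox18 had -0.08, with adjusted p between 0.15 and 0.703.

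**Figure D2:**
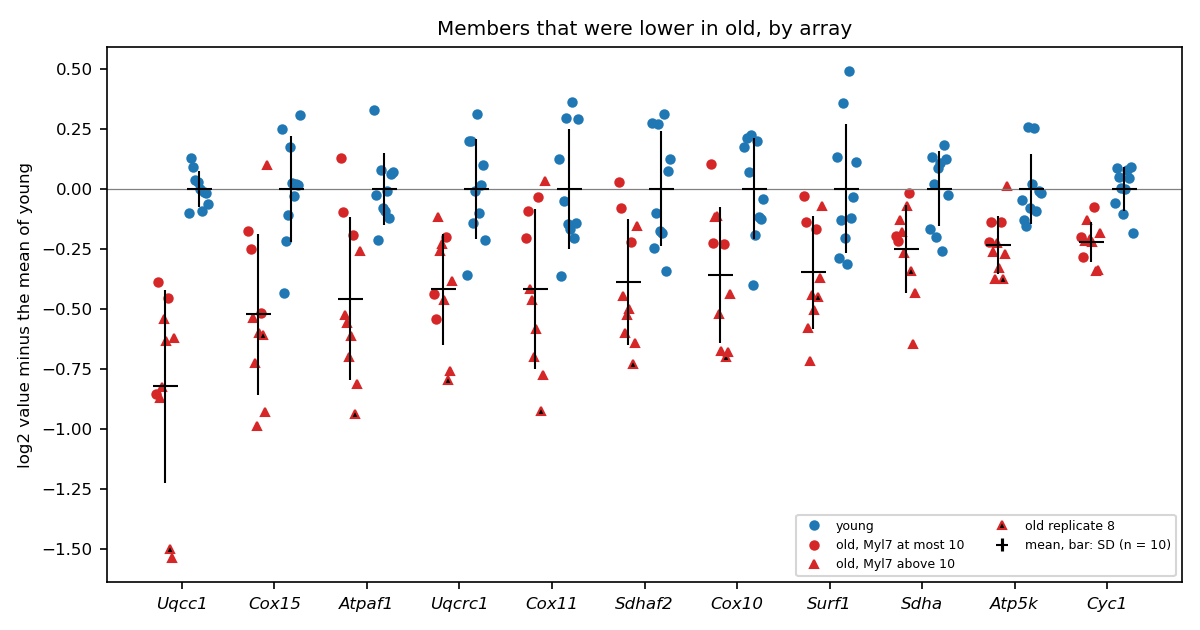
Log2 value of each array minus the mean of young (y axis) for the 11 genes lower in old, with old arrays in red, split by whether Myl7 exceeds 10, young arrays in blue, old replicate 8 with a black centre, and bars for mean and SD of 10 arrays. Only Uqcc1 has every old array below every young array, and the old arrays of the other 10 genes overlap the young ones.

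All 11 called members were below 0 in every one of the 5 array sets, as were 26 of the 46 members in all. The 11 were called on these same arrays, so their sign in the sets is no separate support. The share of all genes below 0 in all 5 sets was not counted. With the sets as a block, 19 members were lower, the 11 among them, against 16.7% of all genes; the sets came from the same data and are no label of the study. One array at a time left out gave 6 to 13 lower members; without old replicate 8 there were 6, and without old replicate 5, old replicate 9 or young replicate 14 there were 7. The 6 genes Uqcc1, Cox15, Atpaf1, Uqcrc1, Sdhaf2 and Cyc1 were called in all 20 of these fits.

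The count of lower members changed in the fits made for atrial transcripts. With an index of Myl7 and Sln as a covariate, 1 member was lower (Uqcc1), against 0.927% of all genes, and the median of the members was -0.12. The index was at most 0.000277 in young and reached 1 in old, so it went with age. SEs rose with it, from 0.063 to 0.084 for Cyc1 and from 0.126 to 0.168 for Cox15. Some estimates moved little (Cyc1 to -0.20, Cox15 to -0.48) and others more (Atpaf1 from -0.46 to -0.24). The parts of lost precision and of changed size in the lost calls were not tested. Leaving out the 7 old arrays rich in Myl7 kept 3 old arrays against 10 young, 2 of the 3 still with Myl7 above every young array. The 3 were old replicates 1 and 2, of the same array set, and old replicate 7, of another. The young arrays came from all 5 sets. The sets were not fitted there, so set and removal cannot be told apart in those estimates. In that fit 1 member was lower (Uqcc1 again), against 0.679% of all genes, and the median was -0.09. With the sets as a block and the index together, Uqcc1 and Cox15 were lower, against 1.89% of all genes. Of the called genes, Uqcrc1, Cyc1 and Atp5k had estimates with these 7 removed of -0.39, -0.19 and -0.16, whereas Atpaf1, Sdhaf2, Cox10, Cox11 and Surf1 were between -0.12 and -0.05. Sdha and Cox15 were at -0.14 and -0.31. Within the array set of old replicates 1 and 2, Uqcrc1, Cyc1 and Atp5k differed by -0.21, -0.12 and -0.15. There Atpaf1, Sdhaf2, Cox10, Cox11 and Surf1 had -0.19, -0.22, -0.125, -0.36 and -0.21, and Sdha and Cox15 had -0.11 and -0.49.

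**Figure D3:**
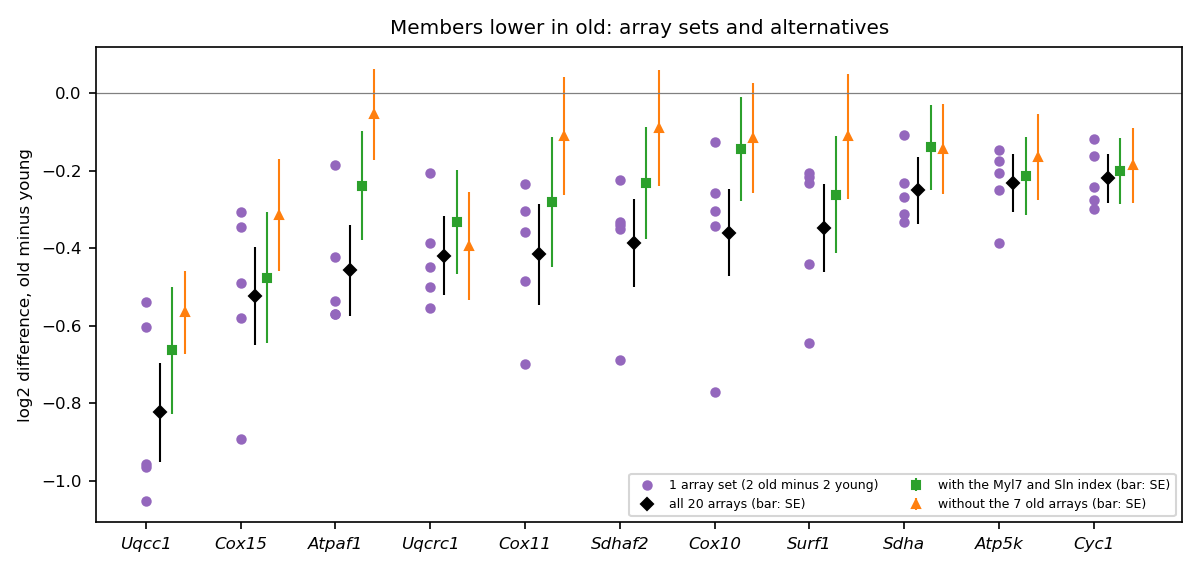
Difference between old and young (log2, y axis) of the 11 genes lower in old: purple points are the 5 array sets (2 old minus 2 young arrays each), and the other symbols, with SE bars, are the fits with all 20 arrays, with the index of Myl7 and Sln, and without the 7 old arrays. Each set value lies below 0, and Uqcc1 has the lowest estimate in all 3 fits.

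Scaling and the choice of probe set moved the counts less. Quantile normalization gave 14 lower members and 0 higher (11.5% lower and 8.73% higher of all genes), and centring each array on its median gave 8 and 0 (5.64% lower and 12.3% higher); the median of all genes moved to -0.06 and 0.04. Of the 24 members with over 1 passing probe set, 22 had every estimate below 0, Uqcrh and Atp5c1 being the exceptions. The probe sets that stand for Sdha, Atp5k and Cox15 are of classes whose probes can also match related transcripts, and the gene table lists pseudogenes of Atp5k. With each of the 77 passing probe sets of the members tested on its own, 16 were lower and 0 higher, against 5.91% lower of all 15304 passing probe sets.

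Bright probe sets can compress a difference. The 19 members with a mean signal above 13, all subunit or cytochrome c genes, had a median of -0.10 with 2 lower (Cyc1 and Atp5k), and all 145 genes in that range had a median of -0.09 with 12.4% lower. The 27 members at 13 or below, among them all 17 assembly and inhibitor genes, had a median of -0.21 with 9 lower, and all 9130 genes in that range had a median of 0.0108 with 7.42% lower. Role and brightness went together in these probe sets, and the part of brightness was not tested.

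**Figure D4:**
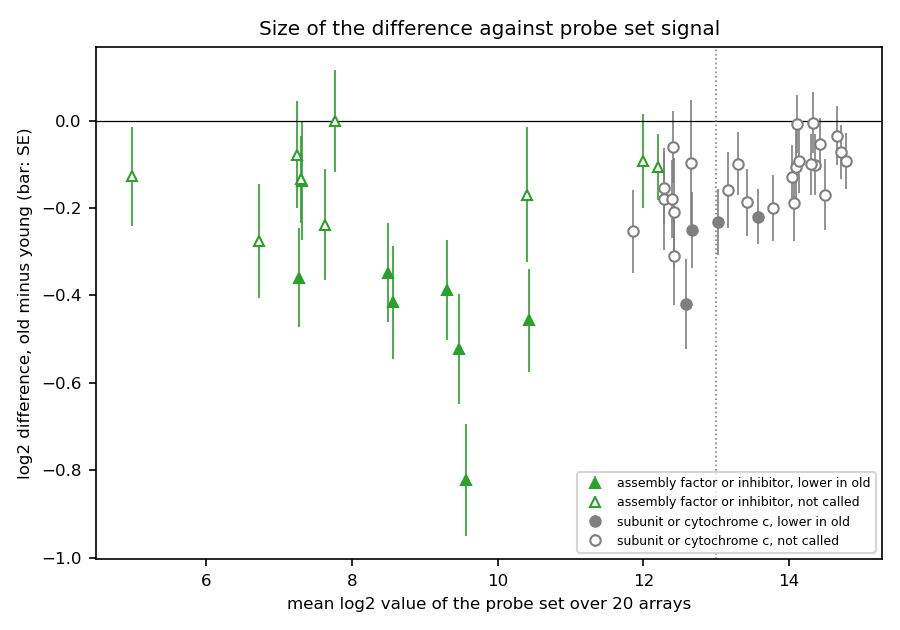
Difference between old and young (log2, y axis, SE bars) against the mean log2 value of each gene's probe set over 20 arrays (x axis), with triangles for assembly or inhibitor genes, circles for subunits and cytochrome c, filled where lower in old; the dotted line marks 13. Subunit genes sit at the bright end and assembly genes spread over the dimmer range, where Uqcc1 lies lowest.

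Whether partner genes changed unequally was tested on the difference of their log2 values within each array, for 12 pairs fixed by role, with a two-sided permutation test of 100000 resamples adjusted over the 12 pairs. None passed, and 3 had an unadjusted p under 0.05. The difference of Cyc1 minus Cycs was lower in old by -0.19 ± 0.06 (SE; permutation adjusted p = 0.0626), with 9 of 10 old arrays below the young median. It was -0.12 (adjusted p = 0.141) with the mean of the 3 passing Cycs probe sets and -0.10 (0.172) with the next one, permutation tests both. That of Cox17 minus Cox11 was higher by 0.31 ± 0.11 (SE; permutation adjusted p = 0.0626), with 8 of 10 old arrays above it. Uqcrc1 minus Uqcrc2 had -0.25 ± 0.11 and Uqcrc1 minus Uqcrfs1 had -0.23 ± 0.11 (both adjusted p = 0.164, permutation test). The catalytic pair Sdha and Sdhb had -0.05 ± 0.09, and Sdha and Sdhd had 0.0024 ± 0.14. Cox10 minus Cox15 ran from -0.42 to 0.59 over the 5 sets.

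Within the 5 array sets, where an exact permutation has 7776 arrangements, 7 of the 12 pairs passed after adjustment. They were Cyc1 and Cycs (adjusted p = 0.00309), Uqcrc1 and Uqcrfs1 (0.00309), Uqcrc1 and Uqcrc2 (0.0072), Cox17 and Cox11 (0.0185), Atp5a1 and Atp5b (0.0185), Atp5g1 and Atp5g3 (0.0185) and Atp5g2 and Atp5g3 (0.0414). The sets came from these data, so these p-values carry that choice. With the 7 old arrays removed none passed, the lowest adjusted p being 0.14 by permutation and 3 unadjusted ones under 0.05; Cyc1 minus Cycs was then -0.25, Cox17 minus Cox11 was 0.07 and Atp5a1 minus Atp5b was 0.014.

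**Figure D5:**
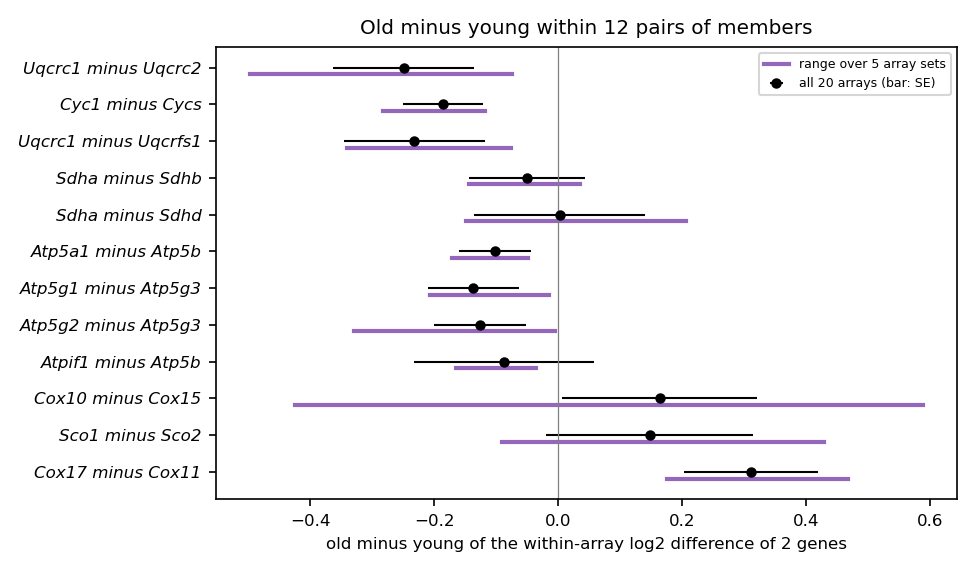
Old minus young of the within-array log2 difference of 2 genes (x axis) for 12 pairs, with the estimate and SE over all 20 arrays in black and the range over the 5 array sets in purple. Cyc1 minus Cycs lies at -0.19 and Cox17 minus Cox11 at 0.31, each on 1 side of 0 in all 5 sets. The same holds for Uqcrc1 minus Uqcrc2, Uqcrc1 minus Uqcrfs1, Atp5a1 minus Atp5b, Atp5g1 minus Atp5g3, Atp5g2 minus Atp5g3 and Atpif1 minus Atp5b.

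Other genes of the pathway, from lists chosen by role, were lower or were not called. Of 12 genes tested from a list of further factors for complexes II, III and V, 2 were lower and 0 higher (median -0.29). They were Sdhaf3, another complex II factor, by -0.51 (limma adjusted p = 0.0175), and Tmem70, which helps build ATP synthase, by -0.28 (0.0401). Dmac2l and Etfrf1 had -0.47 and -0.44 (limma adjusted p = 0.060 and 0.0707). The list was broad: Etfrf1 acts on the electron-transfer flavoprotein and Dmac2 on complex I. Its count and median are thus not of complexes II, III and V alone. Of 13 further complex IV factors, 1 was lower, Lrpprc, which stabilises mitochondrial messenger RNAs, by -0.35 (0.00705). Its partner Slirp had -0.29 (0.156), Coa6 -0.30 (0.162) and Fastkd3 -0.20 (0.185). Of 18 genes of ATP export and cristae, 4 were lower and 0 higher, the lower ones all of the cristae-junction complex: Micos10 (-0.44), Apool (-0.49), Chchd3 (-0.33) and Immt (-0.31). With the atrial index Sdhaf3, Tmem70 and Lrpprc had -0.35, -0.13 and -0.18 and without the 7 old arrays -0.18, -0.0087 and -0.19, none called (limma adjusted p from 0.327 to 0.978). With the index the 4 cristae genes had -0.36, -0.30, -0.22 and -0.30 (limma adjusted p from 0.185 to 0.350), and without the 7 arrays -0.27, -0.16, -0.10 and -0.32 (0.226 to 0.720). At an unadjusted p under 0.05, 0, 0 and 1 genes of these 3 lists were higher. In the list of ATP export and cristae, 1 gene was called higher by limma with the array sets as a block, and 1 with median centring.

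Complex I, the entry point from NADH, had 9 of 32 subunits lower and 0 higher (median -0.19), with Ndufs4 at -0.37, Ndufs7 at -0.33 and Ndufa9 and Ndufb5 at -0.26. All 9 calls were lost with the atrial index by limma (median -0.16; 5 lower at an unadjusted p under 0.05) and without the 7 old arrays (median -0.11; 2 lower at an unadjusted p under 0.05), where Ndufs4 was at -0.11 and Ndufs7 at -0.15. Complex IV itself had 1 of 13 subunits lower and 1 higher (median -0.05): the heart and muscle isoform Cox7a1 at -0.39 (limma adjusted p = 0.00314) and the widespread isoform Cox6a1 at 0.46 (0.00814), with Cox8b at -0.20 and Cox6a2 at -0.13 not called. Cox7a1 had -0.39 (0.0623) with the index and -0.38 (0.0423) without the 7 arrays, and Cox6a1 0.42 (0.138) and 0.33 (0.186). No difference between these lists and the 46 members was tested.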

How the data were processed

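The deposited series table holds log2 expression values of 45101 probe sets, which the authors made with GCRMA, per the submitters' processing notes; its version is not given in the sources used here. Scanner files were not used here. Groups came from the sample titles and the ages from the treatment notes, since the design text calls both age groups young. Probe sets with 1 annotated gene (34945) were kept, and one passed if its value exceeded 4 in at least 10 of 20 arrays; a gene was represented by the brightest such probe set on average over all arrays. limma 3.58.1 in R 4.3.3 (lmFit, eBayes) compared old with young, with Benjamini-Hochberg adjustment. Pairs of genes were tested by permutation in scipy 1.17.1. Array sets came from clustering of residuals.

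The members and lists were chosen with earlier results of these data known. Group values are given for called members and for the member with the smallest p of each role class; of other lists, up to 4 genes with the smallest p are named. On simulated data with 9275 genes, the fit recovered 96% of genes changed by -1, 60% at -0.5 and 8% at -0.25 (log2), with 7 false among 110 calls. The simulation changed 50 genes at each size, with independent noise and no array sets or atrial transcripts. In the data 695 genes were called lower and 1037 higher, so the simulated rates need not carry over. Labels number the animals but name no batch, so p-values measure the spread between these samples. Arrays carry no read depth; their number limits precision. Alternatives were 2 scalings, 2 filters, other probe sets (each tested on its own was added after the data were seen), array weights, a robust trend, array sets, atrial transcripts and leaving out each array.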

Additional observations from a re-analysis of the deposited data

Results flagged for a closer look

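In 7 of 92 groups examined (46 genes in 2 age groups of 10 arrays), 1 array stood apart from the other 9, with a gap above 0.466 of the group's range. Chance flags about 1 in 20 groups. In all 7 it was old replicate 8, the lowest of its group: Sdhaf1 at 6.45 (next lowest 7.11), Uqcr11 at 11.60 (12.12), Uqcc2 at 9.49 (10.14), Atp5e at 11.86 (12.38), Atp5g1 at 13.45 (13.83), Atp5j2 at 13.59 (13.96) and Atp5l at 12.89 (13.21). None of these genes was called lower with all 20 arrays. This array also had the lowest limma quality weight of the 20, at 0.336. The cause was not tested.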

How the results depend on the processing

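No paired analysis was possible because the old and young samples share no replicate numbers. The count of lower members was 11 and ranged from 6 to 13 when 1 array was left out; it was 19 with the array sets as a block, 1 with the atrial index, 1 without the old arrays with Myl7 above 10 and 2 with sets and index, which also moved the median of all members from -0.16 to -0.0743. Left-out arrays gave medians of -0.18 to -0.13. The count of higher members was 0 under every alternative that gave a count. The fit without the 7 old arrays did not balance the array sets, as given above. Estimates that turned to above 0 all belonged to uncalled genes. Without the 7 old arrays they were Sdhb 0.0221, Uqcrfs1 0.0338, Uqcrh 0.0684, Uqcr10 0.113, Cycs 0.0621, Ttc19 0.262, Atp5c1 0.0621, Atp5o 0.0316, Atpif1 0.0751 and Sco1 0.0322; with the index Uqcrh 0.0381, Cycs 0.0216, Ttc19 0.223 and Sco1 0.0571; with sets and index Uqcrh 0.0293, Cycs 0.0423, Ttc19 0.161, Atp5b 0.0018, Atp5d 0.0051, Atp5e 0.0397, Atp5o 0.0038, Atpif1 0.0055, Cox18 0.0564 and Sco1 0.0465. With quantile normalization they were Uqcrh 0.017 and Atp5b 0.0218, with median centring Uqcrh 0.0239, Ttc19 0.0312 and Atp5b 0.0279, with array weights Uqcrh 0.0242, Ttc19 0.0746 and Cox18 0.0078, and with other probe sets Uqcrh 0.0195 (mean of probe sets 0.0053) and Atp5c1 0.118 (mean 0.0085). With 1 array left out, Uqcrh ran from -0.0261 to 0.0147, Ttc19 from -0.0541 to 0.0816 and Atp5b from -0.0263 to 0.0105. Pair differences turned for Sdha minus Sdhb (0.05 with the next probe set) and, without the 7 old arrays, for Sdha minus Sdhd (-0.0516), Atp5a1 minus Atp5b (0.014) and Atpif1 minus Atp5b (0.13). Sdha minus Sdhd ran from -0.0733 to 0.0509, Cyc1 minus Cycs from -0.21 to -0.15 and Cox17 minus Cox11 from 0.26 to 0.36 with 1 array left out, where Cyc1 minus Cycs passed without old replicate 4 or young replicate 20 and Cox17 minus Cox11 without old replicate 7 or 10. Quantile normalization took Cyc1 minus Cycs to -0.22 and Cox17 minus Cox11 to 0.35 (permutation adjusted p = 0.035 for both). Permuting within the 5 sets left the values as they were (Uqcrc1 minus Uqcrc2 -0.25, Uqcrc1 minus Uqcrfs1 -0.23, Atp5a1 minus Atp5b -0.10, Atp5g1 minus Atp5g3 -0.14, Atp5g2 minus Atp5g3 -0.13, Cyc1 minus Cycs -0.19, Cox17 minus Cox11 0.31) and these 7 passed. The next probe set exists for 24 members, 4 of them lower on it (median -0.16); of 7 called members that have one, Uqcc1 and Cox15 were called on it and Sdha, Sdhaf2, Atp5k, Atpaf1 and Cox10 were not. Complex I had 9 lower subunits, and 12, 4, 23 and 0 with quantile normalization, median centring, the set block and the index. The broad list of further factors for complexes II, III and V had 2, and 5, 1, 10 and 0 with the same settings. Dropping single arrays brought in Sdhb, Sdhd and Uqcrq as lower 2, 3 and 2 times. Arrays give no depth. Differences near -0.25 were mostly missed in the simulation, whose rates need not carry over to these data.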
